A study of Homo sapiens with 30 samples.

Results

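Sibjeondaebo-tang is a tonifying herbal formula, and the step from its medium dose (100 µg/mL) to its high dose (500 µg/mL) was examined in HepG2 cells across all genes. The members were the 6 libraries that the labels assign to these doses, 3 per dose, out of 30 libraries in the series, and the genes were the 16083 of 60675 gene rows that passed a filter on low counts. HepG2 is a human liver cancer line that keeps much of the secretory and metabolic program of hepatocytes. All cells were exposed for 24 h. The extract was made with ethanol, and the labels do not state how much of each herb it held. The study profiled such formulas at 3 doses beside a solvent control of dimethyl sulfoxide, given as 0.1% in the sample labels and as 2% in the series design. Further sets of libraries served as context: Sibjeondaebo-tang ethanol extract at 20 µg/mL (low dose), Palmul-tang ethanol extract at 500 and 100 µg/mL, and vehicle, with 3 libraries each. Ethanol extracts of Palmul-tang at 20 µg/mL and of Samul-tang, another formula, at 20, 100 and 500 µg/mL entered only the shared fit. There they contributed to the filter on low counts, the scaling and the pooled spread. In traditional use Sibjeondaebo-tang contains the herbs of Palmul-tang with cinnamon and Astragalus added.

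Liver cells answer plant extracts through a few well-described sensor systems. The aryl hydrocarbon receptor (AHR) binds planar aromatic molecules and switches on CYP1A1. NRF2, released from its inhibitor KEAP1 by electrophiles, drives genes for glutathione synthesis, quinone reduction and thioredoxin recycling, and ATF4 is translated when amino acids run short and raises genes for their synthesis and import. Hepatocyte hepcidin (HAMP) and the ID genes follow bone morphogenetic protein signals, metallothioneins follow free zinc through MTF1, and sterol enzymes follow SREBP2.

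The 6 libraries held 25577311 to 31461176 expected counts, and their totals overlapped between doses. The labels do not tell whether the 3 replicates of a dose came from different cultures. The p-values rest on a spread pooled over 27 libraries of 10 groups, these 6 among them. They cover the spread among libraries alone, part of which may be technical. Levels are given as CPM (counts scaled to library size with TMM factors), listed for replicates 1, 2 and 3 in order, and are not corrected for gene length. In bulk RNA, fewer cells of a type and less RNA per cell cannot be told apart. The titles of all libraries, vehicle included, name the same batch, E. The sample codes of both doses shared a prefix with those of Palmul-tang, while those of vehicle had another. The labels do not explain these codes. Values in vehicle are therefore given for orientation and cannot be told apart from an effect of a possible library set. All 12 hepatocyte markers were at 1 CPM or more, with summed levels of 63684 to 65087 CPM at the medium and 60689 to 62541 CPM at the high dose. Fibroblast markers summed to 68.4 to 72.8 CPM and 74.3 to 80.1 CPM, nearly all from ACTA2, and COL1A2, DCN, LUM, THY1, POSTN and FAP were at 0 in all 6 libraries. Among 9 leukocyte markers PTPRC was at 0, and lysozyme (LYZ), which HepG2 cells expressed in vehicle too, made up most of the sum. Mitochondrial transcripts took 15.7% to 19.7% of counts at the medium and 17.2% to 19.4% at the high dose, and the number of genes with a count was 21120 to 21509 and 20760 to 21080.

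In all, 1786 genes were called at an adjusted p under 0.05 (edgeR's quasi-likelihood test, two-sided, Benjamini-Hochberg over all tested genes), or 11.1% of those tested. Of these, 810 were higher (5.04%) and 976 lower (6.07%) at 500 µg/mL. The higher calls were small and the lower calls larger: the median absolute log2 fold change was 0.21 for higher and 0.38 for lower calls, and at least 1.5-fold was reached by 28 higher and 247 lower genes. At least 2-fold was reached by 8 higher and 65 lower genes. The 3 high libraries were all above the 3 medium ones in 17.3% of tested genes and all below in 13.6%, which is the background for each statement on overlap here. With median-ratio size factors in place of TMM the split was 564 higher and 1102 lower. The number called also depended on single libraries. It was 1075 when high replicate 3 was left out, 1053 for medium replicate 2 and 1147 for medium replicate 3. Medium replicate 2 and high replicate 1 also moved the split, to 25.6% and 26.7% higher from 45.4%. It was 341 higher and 734 lower without high replicate 3, and 412 and 735 without medium replicate 3.

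The share of genes called higher varied with level and gene type, as a description without a test. Among the 5377 most abundant genes (mean log2 CPM of at least 5), 584 were higher (10.9%) and 299 lower (5.56%), while among 5283 genes under 2, 27 were higher (0.511%) and 206 lower (3.90%). Of 12821 protein-coding genes, 794 were higher (6.19%) and 752 lower (5.87%). Of 2232 long noncoding or unclassified RNAs, 9 were higher (0.403%) and 140 lower (6.27%), and of 1014 pseudogenes, 7 were higher and 84 lower. Level and gene type were not crossed, so their parts in these shares cannot be told apart. The number of genes with a count was also lower in every high library than in every medium one, and its part in this split was not tested. In the same step of Palmul-tang, 1.16% of all tested genes were called higher and 1.1% lower. The calls there were 4 higher and 9 lower of the 2232 long noncoding or unclassified RNAs, and 5 and 1 of the 1014 pseudogenes.

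**Figure D1:**
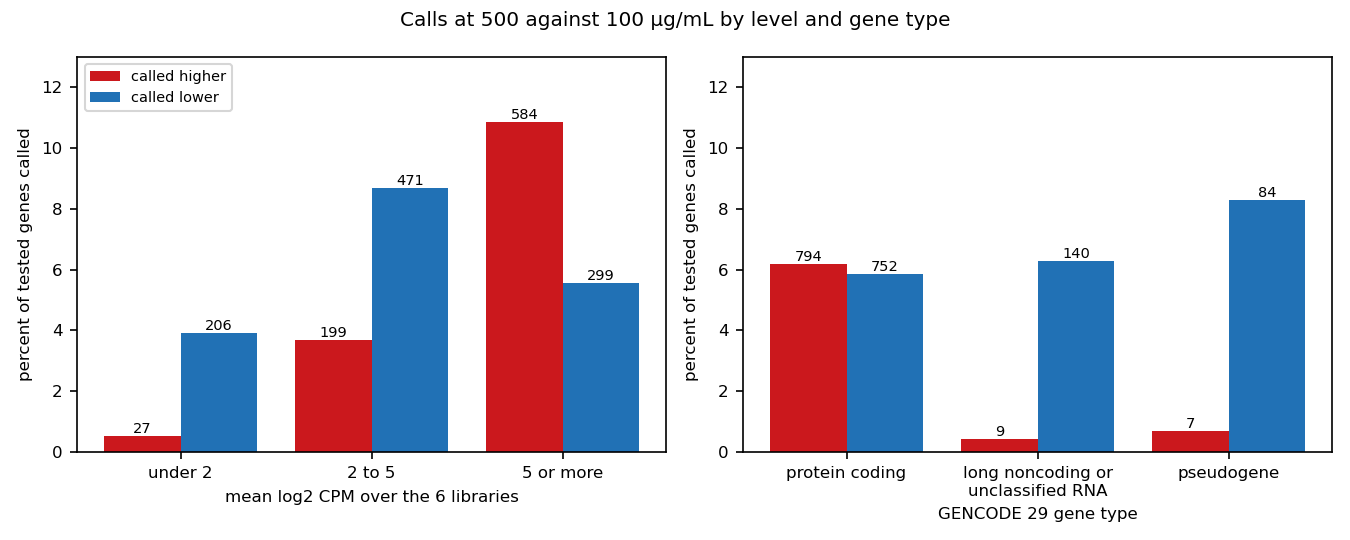
Percent of tested genes called higher (red) or lower (blue) at 500 against 100 µg/mL Sibjeondaebo-tang, by mean log2 CPM over the 6 libraries (left) and by GENCODE 29 gene type (right), with the number of genes on each bar. Higher calls are most frequent among abundant genes (584 of 5377) and rare among noncoding genes (9 of 2232), whereas lower calls make up 3.90% to 8.69% of every class drawn.

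The AHR battery held the gene with the largest log2 fold change upward among those named here. CYP1A1 (chromosome 15, 74719542 to 74725610, GRCh38), the cytochrome P450 used as the readout of this receptor, was at 37.6, 37.6 and 40.5 CPM with the medium dose and 124, 127 and 160.1 CPM with the high dose. Every high library was far above any medium library, and the groups did not overlap. The log2 fold change was 1.83 ± 0.076 (SE) with an adjusted p of 1.61e-15 in edgeR. The 3 low-dose libraries were at 17.9, 19.3 and 17.1 CPM and vehicle at 12.5, 9.56 and 11.7 CPM, and the 4 groups did not overlap. The medium dose exceeded the low dose by a log2 fold change of 1.09 ± 0.083 with an adjusted p of 5.08e-09. ALDH3A1, an aldehyde dehydrogenase of the same battery, rose by 0.83 ± 0.14 from low levels, 2.66, 2.35 and 2.26 CPM with the medium dose and 4.14, 4.75 and 4.07 CPM with the high dose. Of 9 tested AHR targets 3 rose and none fell, beside a background of 5.04% higher, and the third was NQO1, which NRF2 also controls. The median over the list was 0.67, against 0.02 over all tested genes, and 0.43 without medium replicate 1. With 9 members, the median of 0.67 was the value of NQO1 itself. All high libraries were above all medium ones in 5 members (17.3% of all genes) and below them in 1 (13.6% of all genes). UGT1A1, a bilirubin-conjugating enzyme, rose by 0.46 ± 0.080, but it shares its 3' exons with the other UGT1A genes, so its estimate is uncertain.

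The CYP1A1 promoter is shown because that gene had the largest rise among the genes named here. It is the 250 bases before the RefSeq start (GRCh38.p14), with the core of the dioxin response element, GCGTG searched on both strands, in capitals. The single match began 57 bases upstream, and 32.2% of 35116 RefSeq promoter windows of this length held a match. The match is a description of the sequence, not of binding.
CYP1A1 promoter, GRCh38.p14, chr15:74725529-74725778, minus strand: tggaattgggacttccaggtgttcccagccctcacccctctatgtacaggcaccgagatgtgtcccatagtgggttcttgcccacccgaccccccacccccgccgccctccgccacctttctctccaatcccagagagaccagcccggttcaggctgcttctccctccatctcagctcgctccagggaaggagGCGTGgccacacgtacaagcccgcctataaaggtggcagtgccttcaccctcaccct

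NRF2 targets rose nearly as a block. Of 25 tested members 23 rose and none fell, beside 5.04% of all genes, with a median log2 fold change of 0.36. The export pump ABCC2 was at -0.07 and did not pass. The number was 18 to 22 when any 1 of the 6 libraries was left out and 21 to 23 under the other alternatives. From 20 to 100 µg/mL no member was called by edgeR, with 7 at an unadjusted p under 0.05 and 2 called by DESeq2, a median of 0.08 and 18 genes (0.112%) called in all.

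The carbonyl reductases of the aldo-keto reductase family led the NRF2 list. AKR1B10, which reduces reactive aldehydes and retinal, was at 48.0, 44.7 and 47.2 CPM with the medium dose and 102, 95.1 and 101 CPM with the high dose. The high libraries were all far above the medium ones, which lay slightly above vehicle (44.6, 40.6 and 42.1 CPM), and the log2 fold change was 1.09 ± 0.059 with an adjusted p of 3.11e-14 in edgeR. AKR1C2 was at 149.7, 149.8 and 150.1 CPM with the medium dose and 296, 268 and 302 CPM with the high dose, a log2 fold change of 0.95 ± 0.064. AKR1C1 rose by 0.89 ± 0.067. The AKR1C genes are close paralogs whose reads are divided by estimate, so the values of single members are uncertain. PTGR1, a reductase of prostaglandins and alkenals, rose by 0.73 ± 0.081 (14.5, 15.7 and 15.2 CPM with the medium dose and 26.7, 23.7 and 25.3 CPM with the high dose), and PIR, an iron-binding redox protein, by 0.63 ± 0.071. For PTGR1 the medium and vehicle ranges overlapped (vehicle 15.1, 14.3 and 14.1 CPM), and for PIR they did not, with vehicle at 16.6, 16.8 and 16.0 CPM and the medium dose at 18.2, 17.0 and 17.7 CPM.

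Genes of quinone reduction and glutathione supply also rose. NQO1 (chromosome 16, 69706996 to 69726951), the quinone reductase, was at 418, 395 and 404 CPM with the medium dose and 608, 654 and 679 CPM with the high dose, and all high libraries were above all medium ones. Its log2 fold change was 0.67 ± 0.053 with an adjusted p of 1.09e-10 in edgeR. GCLM, the regulatory subunit of the enzyme that makes glutathione's first intermediate, was at 35.2, 34.7 and 31.9 CPM with the medium dose and 51.1, 48.8 and 54.7 CPM with the high dose (0.60 ± 0.066, adjusted p 1.21e-07). SLC7A11, the cystine importer that feeds glutathione synthesis and a member of both the NRF2 and ATF4 lists, was at 37.3, 38.1 and 33.2 CPM with the medium dose and 63.5, 57.4 and 55.9 CPM with the high dose (0.70 ± 0.096, adjusted p 2.56e-05). In each of these genes the lowest high library exceeded the highest medium library. SQSTM1, the autophagy receptor that binds KEAP1, rose by 0.30 ± 0.041.

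The GCLM promoter is shown as an example of a changed NRF2 target with the antioxidant response element, TGACNNNGC on either strand, in capitals. It is the 250 bases before the RefSeq start (GRCh38.p14). The single match lay on the reverse strand, 34 bases upstream of the start. Such a match occurred in 10.9% of all 35116 windows and in 4 of 16 called NRF2 targets that had a window (EPHX1, GCLM, PGD and TXNRD1). The percentage counts windows, while the targets count as matched if any of their windows held it, so these shares are not like for like.
GCLM promoter, GRCh38.p14, chr1:93909431-93909680, minus strand: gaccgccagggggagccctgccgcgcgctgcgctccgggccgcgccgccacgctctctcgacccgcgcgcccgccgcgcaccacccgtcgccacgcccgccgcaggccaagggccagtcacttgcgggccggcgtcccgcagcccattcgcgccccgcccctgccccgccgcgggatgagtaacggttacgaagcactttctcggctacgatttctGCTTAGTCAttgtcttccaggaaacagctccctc

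**Figure D2:**
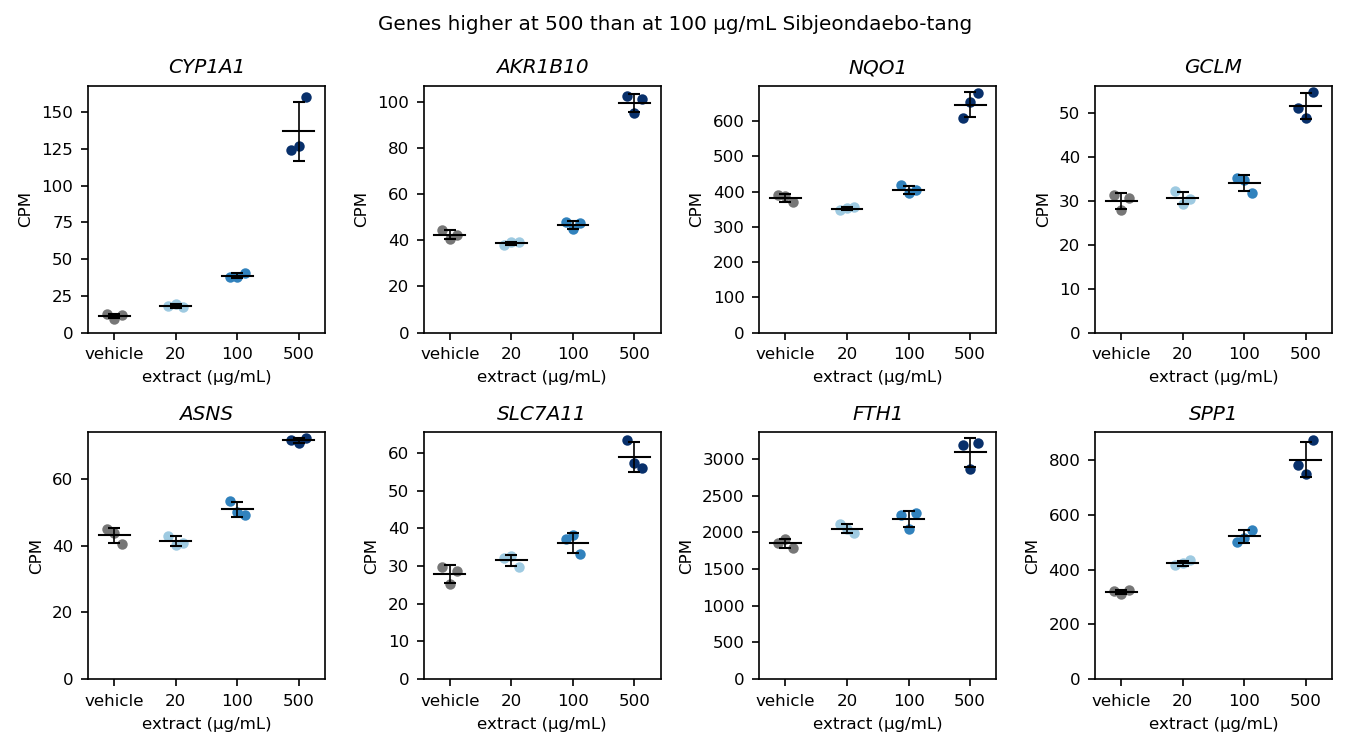
Level in CPM (linear axis from 0) of 8 genes in vehicle and at 20, 100 and 500 µg/mL Sibjeondaebo-tang. Points are single libraries (n = 3), horizontal lines are means and error bars are SD. All 3 high libraries lie above all 3 medium libraries in every panel. CYP1A1, SPP1, AKR1B10 and NQO1 differ without overlap between all 4 groups, and for AKR1B10 and NQO1 the 20 µg/mL libraries lie below vehicle.

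Iron genes split. FTH1, the ferritin heavy chain and an NRF2 target, was at 2231, 2051 and 2262 CPM with the medium dose and 3189.5, 2866 and 3218 CPM with the high dose, a log2 fold change of 0.50 ± 0.064 with an adjusted p of 1.43e-06 in edgeR. Ferritin genes have many processed pseudogenes, so this level is uncertain in its absolute size. TFRC, the transferrin receptor, rose by 0.24 ± 0.060, and ACO1, the cytosolic aconitase that doubles as an iron sensor, by 0.20 ± 0.045. Of 12 tested iron genes 4 rose (5.04% of all genes) and 2 fell (6.07% of all genes). Without medium replicate 3, 2 rose, and 1 fell when that library, medium replicate 1, high replicate 2 or high replicate 3 was left out. The TFRC call was lost, at an adjusted p of 0.0614 without medium replicate 3. HAMP (chromosome 19, 35280716 to 35285143), the hepatic iron hormone hepcidin, had the largest fall among the genes named here. It was at 2.05, 2.95 and 2.30 CPM with the medium dose and 0.538, 0.863 and 0.691 CPM with the high dose, with no overlap between doses. The log2 fold change was -1.77 ± 0.21 with an adjusted p of 3.54e-07 in edgeR. The 4 groups did not overlap, with 6.27, 6.58 and 5.58 CPM in vehicle and 4.58, 5.08 and 4.21 CPM at the low dose.

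HAMP belongs to a set of bone morphogenetic protein targets, of which 5 of 10 fell and none rose, beside a background of 6.07% lower. The median was -0.30. ID3, an inhibitor of basic helix-loop-helix factors, was at 10.7, 10.0 and 9.61 CPM with the medium dose and 6.91, 7.73 and 5.85 CPM with the high dose (-0.56 ± 0.098, adjusted p 0.000183). ID1 was at 72.4, 70.8 and 65.1 CPM with the medium dose and 52.9, 58.2 and 49.4 CPM with the high dose (-0.37 ± 0.071), and ID2 fell by 0.36 on the log2 scale. For ID3 and ID1 the high libraries were all below the medium ones. DKK1, a secreted Wnt antagonist, was at 86.8, 89.9 and 87.4 CPM with the medium dose and 65.7, 67.4 and 65.2 CPM with the high dose (-0.41 ± 0.059, adjusted p 1.20e-05). It is 1 of the 2 lower genes among 12 of the Wnt feedback list, beside 6.07% lower among all genes.

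Amino acid response genes rose in part. Of 25 tested ATF4-linked members 13 rose (5.04% of all genes) and 1 fell (6.07% of all genes), with a median of 0.20. The number of higher members was 6 without medium replicate 2 and 8 when either high replicate 1 or high replicate 3 was left out. ASNS (chromosome 7, 97852118 to 97872542), which makes asparagine, was at 53.5, 50.1 and 49.2 CPM with the medium dose and 71.6, 70.9 and 72.4 CPM with the high dose. The 3 high libraries lay close together and above every medium library, and the log2 fold change was 0.49 ± 0.049 with an adjusted p of 2.06e-08 in edgeR. CEBPB, a transcription factor of the stress and acute phase responses, rose by 0.43 ± 0.082, and GDF15, a secreted stress cytokine, by 0.30 ± 0.056. DDIT3, the pro-apoptotic factor CHOP, was the single member that fell, by 0.30 on the log2 scale, and was singled out after its value was seen. Its call was lost in 4 of 12 alternatives, with an adjusted p up to 0.202. Neither ATF4 itself (0.07) nor TRIB3 (0.17) passed the test.

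The ASNS promoter is shown because ASNS had the smallest adjusted p of the ATF4 list. The capitals mark TGATGNAA, the core of the amino acid response element, searched on both strands of the 250 bases before the RefSeq start (GRCh38.p14). It began 68 bases upstream, and 3.14% of 35116 windows held it. ASNS had 2 RefSeq windows, and the one printed was picked because it held a match. The share over windows is therefore no measure of how unusual this match is. Of 12 called members of the list with a window, ASNS was the only one with a match in any of its windows.
ASNS promoter, GRCh38.p14, chr7:97872409-97872658, minus strand: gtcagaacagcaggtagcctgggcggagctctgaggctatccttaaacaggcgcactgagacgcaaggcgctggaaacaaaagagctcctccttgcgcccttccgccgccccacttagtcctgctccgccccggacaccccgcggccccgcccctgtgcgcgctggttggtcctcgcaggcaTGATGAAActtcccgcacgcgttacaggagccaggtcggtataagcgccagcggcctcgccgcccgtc

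Aminoacyl-tRNA synthetases, which charge tRNAs and share regulation with amino acid genes, rose in 13 of 20 tested members, beside 5.04% of all genes, and none fell. The shifts were small, with a median of 0.17. WARS1 rose by 0.24 ± 0.045, VARS1 by 0.21 ± 0.042, EPRS1 by 0.25 ± 0.051 and AARS1 by 0.22 ± 0.046. AARS1 lost its call, at an adjusted p of 0.0555 without high replicate 1. The list had 5 called members without medium replicate 2, 6 without high replicate 1, 7 without high replicate 3, 7 without medium replicate 3 and 8 without high replicate 2. Proteasome subunits rose in 9 of 27, against the same 5.04%, including PSMD11 (0.21 ± 0.045) and PSMB2 (0.21 ± 0.055), with a median of 0.14. PSMD11 lost its call at an adjusted p of 0.0584 without high replicate 1, and PSMB2 at 0.111 without high replicate 1 and 0.127 without medium replicate 2. That count was 2 without medium replicate 2, 3 without high replicate 3, 3 without medium replicate 3, 4 without high replicate 1, 4 without high replicate 2 and 5 with median-ratio size factors.

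Glucose handling genes rose in 7 of 28 tested members of the hypoxia and glycolysis list, beside 5.04% of all genes, and none fell. The glucose transporter SLC2A1 rose by 0.28 ± 0.052, the isomerase GPI by 0.26 ± 0.053 and enolase ENO1 by 0.27 ± 0.062. ENO1 lost its call at an adjusted p of 0.0572 without high replicate 1 and 0.0593 without medium replicate 2. VEGFA, the hypoxia-inducible growth factor, was at -0.12 and did not pass. The count was 2 without medium replicate 2, 3 without high replicate 1 and 14 without medium replicate 1. PC, pyruvate carboxylase, was at 50.9, 47.2 and 50.4 CPM with the medium dose and 64.4, 68.1 and 66.2 CPM with the high dose (0.42 ± 0.059, adjusted p 7.35e-06), and its groups did not overlap. Among heat shock proteins 3 of 16 rose, beside 5.04% of all genes, and 0 did without high replicate 2, high replicate 3, medium replicate 2 or medium replicate 3. Without high replicate 1, and likewise with median-ratio size factors, 1 rose. HSPA1A, the inducible HSP70, was at 118, 115 and 115 CPM with the medium dose and 133, 121 and 125 CPM with the high dose (0.12 ± 0.056, adjusted p 0.165), against 61.6, 55.8 and 58.0 CPM in vehicle. HSPA1A and HSPA1B are near-identical, so their split is uncertain.

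Efflux transporters for drugs and conjugates rose in 4 of 13 tested members, beside 5.04% of all genes, and none fell. ABCG2, a broad xenobiotic exporter, was at 11.7, 11.97 and 12.6 CPM with the medium dose and 18.1, 17.0 and 15.9 CPM with the high dose (0.49 ± 0.077, adjusted p 4.65e-05), with all high libraries above all medium ones. ABCB1, P-glycoprotein, rose by 0.23 ± 0.045. ABCC1 rose by 0.26 ± 0.072 and ABCC3 by 0.20 ± 0.052, both with calls that depended on single libraries. The adjusted p of ABCC1 was 0.0572 without high replicate 1, 0.111 without high replicate 2, 0.0996 without medium replicate 2 and 0.0696 without medium replicate 3. That of ABCC3 was 0.0717 with no filter on low counts, 0.112 without high replicate 1 and 0.0815 without medium replicate 3. No more than 2 transporters were called without high replicate 1 or without medium replicate 3. CPLX2, a complexin of vesicle fusion, rose by 0.65 ± 0.050 (178, 178 and 191 CPM with the medium dose and 278, 273 and 306 CPM with the high dose). SPP1, the secreted matrix protein osteopontin, was at 501, 517 and 546 CPM with the medium dose and 782, 750.4 and 872 CPM with the high dose (0.62 ± 0.091, adjusted p 8.02e-05), and it was lower still in vehicle (323, 309 and 324 CPM) and at the low dose (416, 422 and 433 CPM).

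Metallothioneins, the cysteine-rich zinc and copper buffers, fell in 5 of 8 tested members of the zinc list, beside 6.07% of all genes, and none rose. The median was -0.51. MT1F was at 36.3, 38.2 and 38.8 CPM with the medium dose and 22.8, 22.6 and 23.5 CPM with the high dose, with all high libraries below all medium ones and a log2 fold change of -0.72 ± 0.13 (adjusted p 0.00104, edgeR). MT1X was at 28.4, 25.2 and 24.6 CPM with the medium dose and 17.5, 18.1 and 19.6 CPM with the high dose (-0.50 ± 0.13, adjusted p 0.0153), and its call was lost at an adjusted p of 0.055 without high replicate 2 and 0.0637 without medium replicate 1. MT1G fell by 0.72 on the log2 scale. MT2A (-0.35) and the zinc exporter SLC30A1 (0.01) did not pass. Without high replicate 3 or without medium replicate 3 the count was 3. These genes are close paralogs, and reads divided between them make single values uncertain.

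The MT1X promoter is shown because MT1X was the called metallothionein with a RefSeq window. The capitals mark the metal response element core, TGCACNC or TGCGCNC, searched on both strands. There were 4 matches, 3 of them forward, beginning 53 to 150 bases upstream, and 24.8% of 35116 windows held at least 1.
MT1X promoter, GRCh38.p14, chr16:56682220-56682469, plus strand: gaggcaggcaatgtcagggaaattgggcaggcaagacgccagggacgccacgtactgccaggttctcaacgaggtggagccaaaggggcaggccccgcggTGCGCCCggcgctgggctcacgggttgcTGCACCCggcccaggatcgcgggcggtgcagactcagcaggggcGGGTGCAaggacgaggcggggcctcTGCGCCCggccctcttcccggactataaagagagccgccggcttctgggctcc

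**Figure D3:**
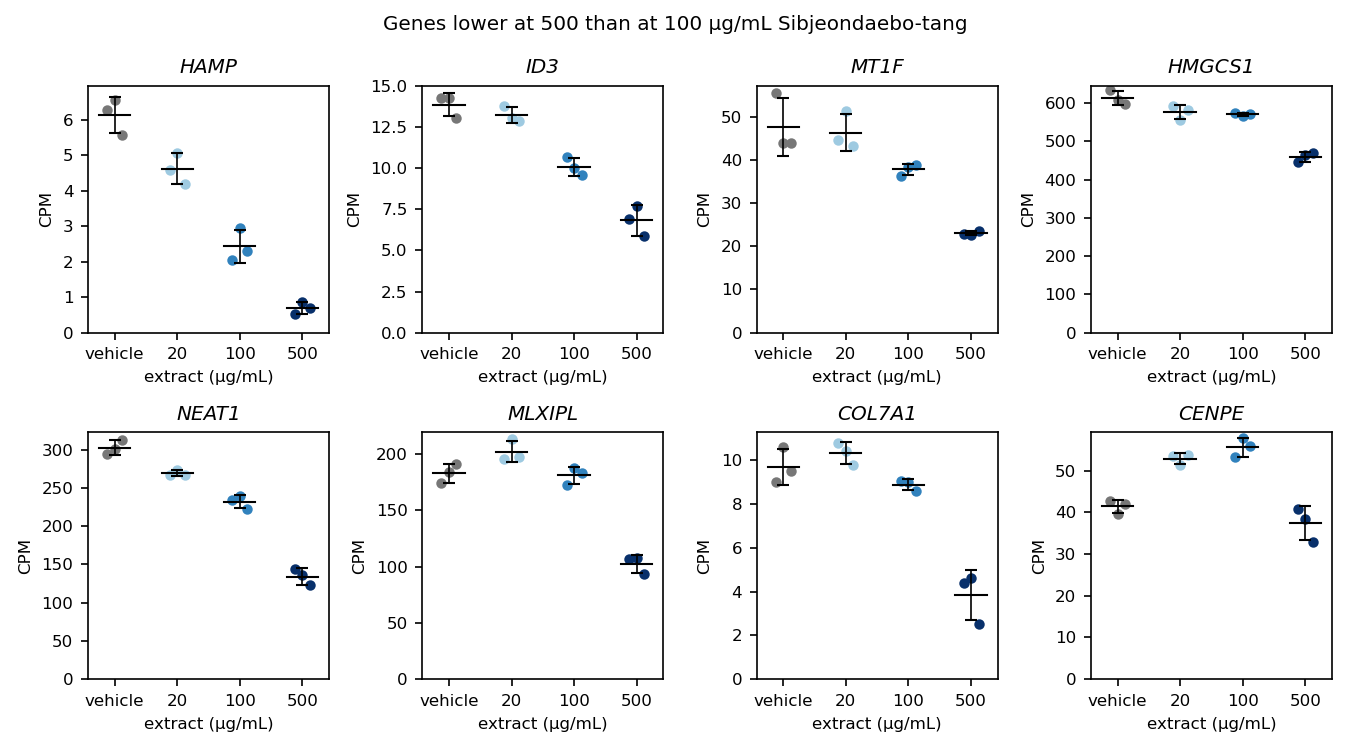
Level in CPM (linear axis from 0) of 8 genes in vehicle and at 20, 100 and 500 µg/mL Sibjeondaebo-tang. Points are single libraries (n = 3), horizontal lines are means and error bars are SD. All 3 high libraries lie below all 3 medium libraries in every panel, the 4 groups do not overlap for HAMP, and for MLXIPL and COL7A1 the 100 µg/mL libraries overlap with vehicle. For CENPE the 500 µg/mL libraries overlap with vehicle.

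Some genes of lipid synthesis fell. Of 24 tested genes of cholesterol synthesis and uptake 7 fell and none rose, beside 6.07% lower among all genes, with a median of -0.10, and 3 fell without medium replicate 1. HMGCS1, which makes the precursor of mevalonate, was at 575, 565 and 571 CPM with the medium dose and 445, 464 and 469 CPM with the high dose (-0.31 ± 0.045, adjusted p 1.35e-05), and the doses did not overlap. LSS, lanosterol synthase, fell by 0.25 and STARD4, a sterol carrier, by 0.29 on the log2 scale. Of 18 genes of fatty acid and triglyceride synthesis 6 fell (6.07% of all genes) and 1 rose (5.04% of all genes). The latter was DGAT1 (0.16 ± 0.053), named after its value was seen. Its call was lost when any 1 library other than medium replicate 3 was left out. The same held with DESeq2, median-ratio size factors, no filter on low counts and only the groups compared, with an adjusted p up to 0.319 over the alternatives. MLXIPL (chromosome 7, 73593194 to 73624543), the carbohydrate-responsive factor ChREBP, was at 173, 188 and 183 CPM with the medium dose and 106, 108 and 93.5 CPM with the high dose. Its high libraries were all below every medium, low-dose and vehicle library, and the log2 fold change was -0.82 ± 0.066 with an adjusted p of 5.49e-10 in edgeR. FASN (0.04) and SCD (0.00), whose products build saturated and monounsaturated fatty acids, did not pass.

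Among 28 tested genes of hepatocyte plasma proteins 4 fell (6.07% of all genes) and 1 rose (5.04% of all genes), with a median of -0.07, which was -0.11 without high replicate 3. The number lower was 2 without high replicate 2 and 7 with DESeq2. KNG1, the kinin precursor, was at 8.95, 9.31 and 9.26 CPM with the medium dose and 5.38, 5.71 and 6.18 CPM with the high dose (-0.67 ± 0.083, adjusted p 1.07e-06), with no overlap. CFB, complement factor B, fell by 0.23, and AMBP, the precursor of alpha-1-microglobulin, rose by 0.29 ± 0.053. Albumin (ALB) was at 10404, 9819 and 9883 CPM with the medium dose and 8917, 9063 and 9192 CPM with the high dose and did not pass (-0.15 ± 0.051, adjusted p 0.0564), although its libraries did not overlap. It passed in 5 of 12 alternatives. Among liver transcription factors, 2 of 23 rose (5.04% of all genes), CEBPB and HNF4A, and the HNF4A call (0.15 ± 0.045) was lost in 7 of 12 alternatives, at an adjusted p of 0.0593 with median-ratio size factors, 0.152 with no filter on low counts, 0.143 without high replicate 1, 0.06 without high replicate 2, 0.124 without high replicate 3, 0.166 without medium replicate 2 and 0.0789 without medium replicate 3.

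A group of splicing factors fell. Of 25 tested SR proteins, CLK kinases and hnRNPs 9 fell and none rose, beside 6.07% lower among all genes, with a median of -0.12. The count was 8 or 9 without any 1 library. RBM39, a splicing coactivator, was at 389, 394 and 369.7 CPM with the medium dose and 310.0, 301 and 276 CPM with the high dose (-0.38 ± 0.043, adjusted p 2.44e-07). SRSF5 was at 180.1, 188 and 183 CPM with the medium dose and 145, 144 and 138 CPM with the high dose (-0.37 ± 0.049, adjusted p 3.02e-06). In both, the high libraries were all below the medium ones. CLK2, a kinase that phosphorylates SR proteins, fell by 0.37 and SRSF6 by 0.25 on the log2 scale. SRSF1 (-0.02), SRSF3 (0.05) and HNRNPA1 (0.09) did not pass.

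Nuclear noncoding RNAs did not move together. NEAT1 (chromosome 11, 65422774 to 65445540), the scaffold of paraspeckles, was at 234, 239.8 and 222 CPM with the medium dose and 143, 137 and 122 CPM with the high dose. Its high libraries were below all medium ones, and the log2 fold change was -0.79 ± 0.052 with an adjusted p of 2.93e-12 in edgeR. MALAT1, an abundant speckle RNA encoded beside it, was at 255, 281 and 261 CPM with the medium dose and 336, 288 and 327 CPM with the high dose, a log2 fold change of 0.26 ± 0.061 (adjusted p 0.00493) in the other direction, and lost the call at an adjusted p of 0.0841 without high replicate 1 and 0.0539 without high replicate 3. The snoRNA host transcripts SNHG1 (-0.45 ± 0.072) and SNHG12 (-0.50 ± 0.082) fell.

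Large falls also occurred in genes of mixed function. GOLGA8B, of a golgin family with near-identical copies on chromosome 15, was at 94.4, 101 and 88.6 CPM with the medium dose and 45.6, 43.2 and 33.4 CPM with the high dose (-1.22 ± 0.071, adjusted p 9.22e-13), and its neighbour GOLGA8A fell by 1.16, a split between copies that is uncertain. COL7A1, the anchoring fibril collagen, was at 9.04, 8.99 and 8.60 CPM with the medium dose and 4.38, 4.61 and 2.51 CPM with the high dose (-1.21 ± 0.13, adjusted p 1.60e-07). PABPC1L, a poly(A)-binding protein, was at 59.3, 58.4 and 52.8 CPM with the medium dose and 32.2, 34.2 and 25.4 CPM with the high dose (-0.89 ± 0.070, adjusted p 1.09e-10). In all 3 genes replicate 3 was the lowest of the high libraries, and none overlapped with the medium dose. Further falls of this size were KIFC2, a kinesin (-0.96 ± 0.097), RNF207 (-0.96 ± 0.12), ATG16L2 (-0.94 ± 0.12), NRBP2 (-0.90 ± 0.076), NPEPL1 (-0.90 ± 0.11), OSBPL7 (-0.89 ± 0.10) and the long noncoding RNA APPAT (-0.98 ± 0.14). SLX1B-SULT1A4, a readthrough gene (-0.90 ± 0.23), lost its call at an adjusted p of 0.265 with only the groups compared and 0.0516 without medium replicate 2.

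Some cell cycle genes fell. Of 32 S-phase genes 4 fell and none rose, beside 6.07% lower among all genes, with a median of -0.02, and PCNA was at -0.03 and MCM2 at 0.05. The fall was in RFC4 (-0.37 ± 0.080), E2F2 (-0.33 ± 0.092), ORC6 (-0.23 ± 0.053) and POLE (-0.19 ± 0.041). E2F2 lost its call at an adjusted p of 0.141 without high replicate 3 and 0.0617 without medium replicate 2. Of 25 mitosis genes 3 fell, against the same 6.07%, and 1 did without high replicate 2, without medium replicate 2 or without medium replicate 3. CENPE, a kinetochore motor, was at 53.3, 57.8 and 55.9 CPM with the medium dose and 40.8, 38.5 and 33.0 CPM with the high dose (-0.57 ± 0.057, adjusted p 2.06e-08). Its high libraries overlapped with vehicle (42.7, 39.6 and 42.0 CPM), while the low dose was at 53.6, 51.4 and 53.9 CPM. The main fit made no call among 13 mitochondrially encoded, 32 cytosolic ribosomal or 15 circadian clock genes. At an unadjusted p under 0.05, edgeR gave 1, 2 and 1 of them, and DESeq2 called 0, 0 and 1. Without the filter on low counts, 2 mitochondrial genes were called higher and 1 lower, and 3 ribosomal genes higher. A GC and length offset called 1 mitochondrial and 1 ribosomal gene higher and 1 clock gene lower. The compared groups alone gave the same counts as that offset.

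**Figure D4:**
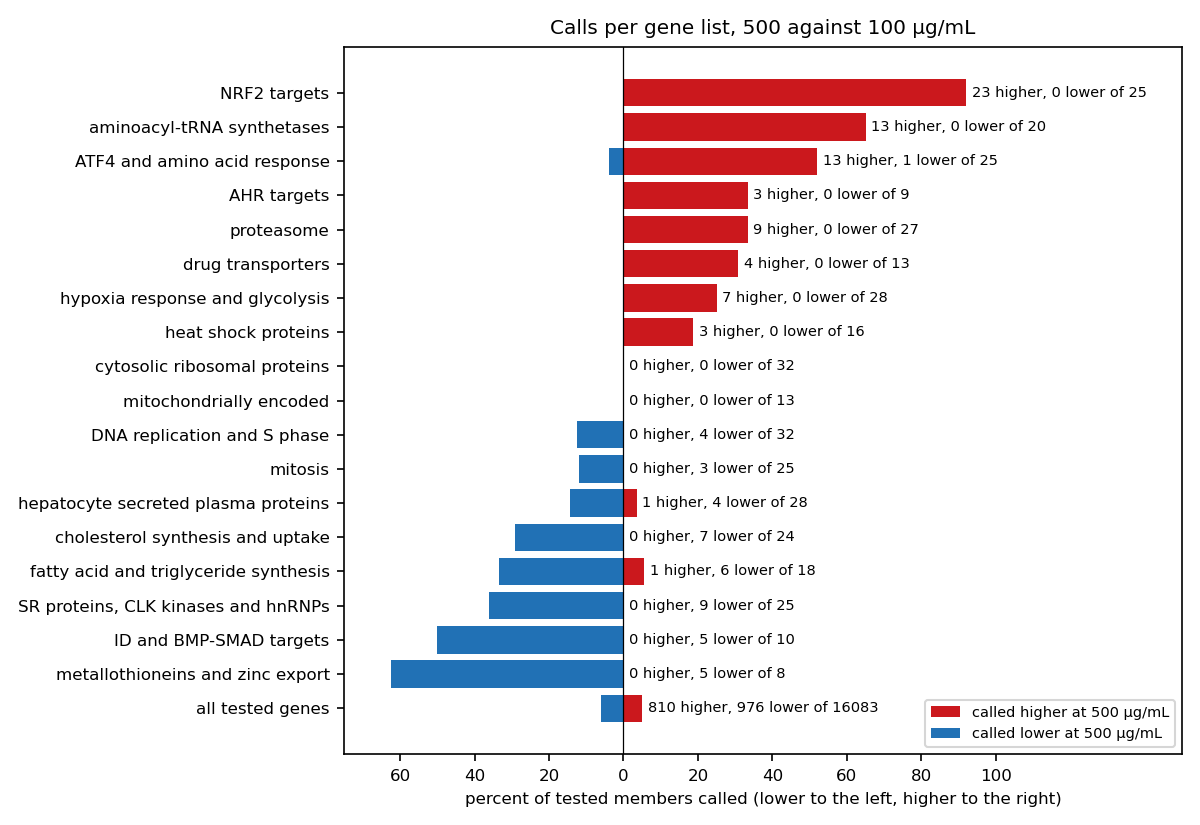
Percent of the tested members of each gene list called lower (blue, to the left) or higher (red, to the right) at 500 against 100 µg/mL Sibjeondaebo-tang, with counts. NRF2 targets reach 23 of 25 higher and metallothioneins 5 of 8 lower, against 810 higher and 976 lower of all 16083 genes.

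The same dose step of Palmul-tang was compared because these libraries share no sample with those of Sibjeondaebo-tang. It gave 364 calls (2.26%), 187 higher (1.16%) and 177 lower (1.1%), and without its high replicate 2 or its medium replicate 2 it gave 227 and 215. Of the 810 higher genes, 128 were also higher with Palmul-tang, 15.8% of the first list and 68.4% of the second, and none was lower. Of the 976 lower genes, 63 were also lower, 6.45% and 35.6%, and 2 were higher. NRF2 targets rose in 21 of 25 with Palmul-tang, with the same median of 0.36. Bone morphogenetic protein targets fell in 5 of 10, cholesterol genes in 16 of 24 and metallothioneins in 2 of 8. Of the 8 genes on that last list, 5 were at an unadjusted p under 0.05 in edgeR with Palmul-tang, and DESeq2 called 2. Their median was -0.35, and edgeR called 0 differences between the formulas among them, with 0 at an unadjusted p under 0.05. Of the 25 splicing factors edgeR called 0 with Palmul-tang, with 2 at an unadjusted p under 0.05 and 0 called by DESeq2.

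**Figure D5:**
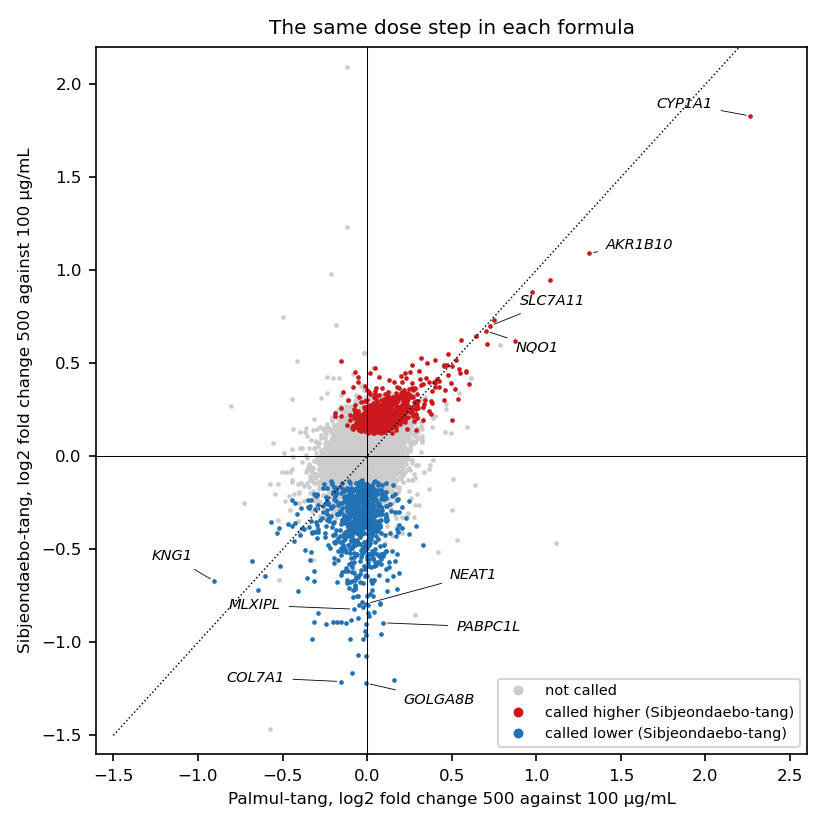
Log2 fold change at 500 against 100 µg/mL in Sibjeondaebo-tang (vertical axis) and Palmul-tang (horizontal axis) for 10799 genes whose mean log2 CPM was at least 2 in the 6 Sibjeondaebo-tang libraries, with 1 gene outside the axes. Red and blue points were called higher and lower with Sibjeondaebo-tang. AKR1B10, NQO1 and SLC7A11 lie near the dotted line of equal change, CYP1A1 lies toward the larger change of Palmul-tang (1.83 against 2.26), and GOLGA8B, COL7A1, NEAT1 and MLXIPL lie near 0 for Palmul-tang.

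The difference between these steps was tested directly, and 286 genes (1.78%) passed, 23 with a higher (0.143%) and 263 with a lower value (1.64%) for Sibjeondaebo-tang. That count was 187 without Sibjeondaebo-tang high replicate 3, 189 without Palmul-tang high replicate 2 and 553 without the filter on low counts. NEAT1 was at 246, 249.9 and 248 CPM with the medium and 249, 246 and 247 CPM with the high dose of Palmul-tang, and these ranges overlapped. The difference was -0.79 ± 0.073 with an adjusted p of 4.16e-08 in edgeR. MLXIPL was at 169.8, 189.8 and 202 and 174, 193 and 165 CPM (-0.74 ± 0.093, adjusted p 1.02e-05), and its Palmul-tang ranges overlapped. GOLGA8B was at 108, 113 and 106 and 109, 107 and 110.2 CPM (-1.21 ± 0.097, adjusted p 8.74e-09). The difference also passed for PABPC1L, COL7A1, KIFC2, RNF207 and ATG16L2, for CENPE (-0.48 ± 0.081, adjusted p 0.000599) and for 3 of 25 splicing factors, SRSF5 (-0.36 ± 0.070), RBM39 (-0.30 ± 0.061) and RBM25 (-0.28), the last named after its value was seen.

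For most NRF2 targets the steps were not told apart. AKR1B10 differed by -0.22 ± 0.083 (adjusted p 0.227), NQO1 by -0.03 ± 0.074 (adjusted p 0.916) and GCLM by -0.10 ± 0.094 (adjusted p 0.71), all in edgeR. Of the 25 targets, 2 export pumps had a lower value with Sibjeondaebo-tang, ABCC3 (-0.30 ± 0.073) and ABCC2 (-0.43 ± 0.059), singled out after their values were seen. CYP1A1 was at 37.8, 35.9 and 37.4 CPM with the medium and 185, 179.9 and 169.5 CPM with the high dose of Palmul-tang. The medium ranges of the formulas overlapped, the high range was above that of Sibjeondaebo-tang, and the difference of the steps was -0.44 ± 0.11 with an adjusted p of 0.0287. Among 24 cholesterol genes edgeR called 0 differences, with 13 at an unadjusted p under 0.05 and 0 called by DESeq2, and HMGCS1 fell by 0.31 with Sibjeondaebo-tang and by 0.41 with Palmul-tang on the log2 scale. Among 10 bone morphogenetic protein targets edgeR called 0 differences, with 0 at an unadjusted p under 0.05 and 0 called by DESeq2. A p that misses the threshold does not show that the formulas act alike.

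The lower step, from 20 to 100 µg/mL, used the same medium libraries and is given side by side. It had 18 calls (0.112%), 16 higher (0.0995%) and 2 lower (0.0124%). The count was 3 without low replicate 2, 3 without medium replicate 1, 5 without low replicate 3, 8 without low replicate 1 and 10 without medium replicate 3, and it was 47 with DESeq2, 106 with the compared groups alone and 174 without the filter on low counts. Low replicate 3 also held fibroblast transcripts, with COL1A1 at 8.29 CPM against at most 0.42 CPM in any medium library. CYP1A1 rose by 1.09 ± 0.083, UGT1A1 by 0.43 ± 0.082, ASNS by 0.30 ± 0.050 and CPLX2 by 0.26 ± 0.050. HAMP changed by -0.93 ± 0.15 in the lower and -1.77 ± 0.21 in the upper step. AKR1B10 was at 0.27 ± 0.061 (adjusted p 0.0762), NEAT1 at -0.21 ± 0.051 (adjusted p 0.104) and MLXIPL at -0.16 ± 0.065 (adjusted p 0.622) in edgeR, none of them past the threshold.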

How the data were processed

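RNA was sequenced from HepG2 cells in 30 libraries of 13 groups, with a directional library kit per the labels' protocols. The authors deposited expected counts per gene, a table of 60675 Ensembl gene rows. Another 240 columns were of no sample used here and were left aside. The submitters' processing notes name RSEM 1.3.3, STAR 2.7.3a, Trim Galore 0.6.5 and FastQC 0.11.9, and the builds hg38 and GRCh38. The annotation release, and whether strand was used in counting, are not given in the sources used here. Such counts share reads among near-identical genes by estimate, and 8.56% of values were not whole. The wortmannin control named in the series design was not analysed here.

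The expected counts were rounded. Genes were kept by filterByExpr (minimum count 10, minimum total 15). With TMM factors, edgeR 4.0.16 in R 4.3.3 fitted 1 robust quasi-likelihood model to the 27 libraries in the 10 replicated groups (17 residual degrees of freedom, biological coefficient of variation 5.47%). Contrasts were tested two-sided, with Benjamini-Hochberg adjusted p-values over every gene tested and a threshold of 0.05. Standard errors were derived as the size of the log2 fold change over the root of its F statistic. Symbols came from an Ensembl name table that matched 56558 rows, 41209 with a symbol, and positions from GENCODE 29 (GRCh38). Promoter sequences are from RefSeq. Replicate pairs differed by 5.00 to 21.2 times counting noise (mean chi-square per gene) within the medium and high doses. Each library was counted as 1 replicate, although spread above counting noise does not show that the cultures were separate. On simulated counts for high against medium, the test found 38% of the genes set to change 1.2-fold. It found 60% of those set to 1.5-fold, 68% of those set to 2-fold and 86% of those set to 3-fold, and called 7 of 15643 unchanged genes among 15839 run. The simulation changed far fewer genes than the 1786 called in the data, so these shares do not carry over.

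The 42 gene lists, the samples and the tests were chosen with earlier results of these data known. Named genes are up to 12 in each direction, ranked by the size of the log2 fold change, among calls whose mean log2 CPM was at least 2, whose doses did not overlap and whose symbol is no clone, LINC, pseudogene-style or small RNA name, up to 4 called members per list by adjusted p, 9 genes always given, and up to 6 each way for the difference between formulas. Members outside the rule are quoted as values that did not pass, or are named as chosen after their values were seen. Alternatives were DESeq2 1.42.0, median-ratio factors, no filter on low counts, a fit restricted to the groups compared, a block for the replicate number, a GC and length offset, and each replicate left out.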

Additional observations from a re-analysis of the deposited data

Results flagged for a closer look

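The response to the step from 100 to 500 µg/mL differed between the formulas by the test of the difference itself in 286 genes. The values here are the log2 fold change with Sibjeondaebo-tang minus that with Palmul-tang. The 6 lowest among the named genes were GOLGA8B (-1.21), GOLGA8A (-1.08), COL7A1 (-1.05), KIFC2 (-1.04), PABPC1L (-0.99) and RNF207 (-0.95). In these 6 genes the fold change with Palmul-tang lay between -0.16 and 0.10, and all 3 high libraries of Sibjeondaebo-tang were below all 3 medium ones.

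In the other direction the difference was called for SLC6A8, a creatine transporter (0.47), APOL1, an apolipoprotein (0.41), PFKFB4, a regulator of glycolysis (0.40), C8orf82 (0.37), TMEM198 (0.36) and BHLHE40, a circadian and hypoxia-linked repressor (0.36). SLC6A8 fell with Palmul-tang by 0.36 (adjusted p 0.0244, edgeR) and was at 0.11 with Sibjeondaebo-tang. BHLHE40 fell with Palmul-tang by 0.32 (adjusted p 0.00617) and was at 0.05 with Sibjeondaebo-tang. APOL1 rose with Sibjeondaebo-tang by 0.22 ± 0.065, called in 8 of 12 alternatives, and C8orf82 rose by 0.22 ± 0.070, called in 3 of 12.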

How the results depend on the processing

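All alternatives were planned. The number of genes called in the Sibjeondaebo-tang step was 1573 with DESeq2, 1666 with median-ratio factors, 1724 without the filter, 1891 with the compared groups alone, 2248 with a GC and length offset, and 1053 to 1540 with 1 library left out. The percent of calls that were higher was 33.9% with median-ratio factors and 25.6% to 45.2% with 1 library left out. For Palmul-tang the count was 215 to 278 with 1 library left out. For the medium against the low dose it was 47 with DESeq2, 174 without the filter, 106 with the compared groups alone and 3 to 12 with 1 library left out. For the difference between formulas it was 553 without the filter and 187 to 306 with 1 library left out. The cause of these shifts was not tested. With the replicate number as a block, 1946 genes were called. Same-numbered libraries of the 2 doses correlated by 0.035, 0.047 and 0.039 in their deviations from the group means, each its own best match, but all too low to treat the numbers as pairs.

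Among values of single named genes under an alternative, 1366 kept direction and call, 162 lost the call, 6 gained it and 2 reversed. The reversals were BHLHE40, which was not called, at -0.0023 without high replicate 1 and -0.028 without medium replicate 2, in a range of -0.028 to 0.11 with 1 library left out. In the simulation, 38% of the changes of 1.2-fold were found. It changed far fewer genes than were called here, which makes the adjusted threshold stricter, so that share does not carry over. Genes without a call may still differ by that much.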
